A study of Homo sapiens with 24 samples.

Results

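The interaction of RK-33 and NaAsO2 was measured in the soluble cytoplasm of U2OS cells, a human osteosarcoma line. RK-33 inhibits the RNA helicase DDX3, and NaAsO2 (sodium arsenite) induces oxidative stress and the assembly of stress granules (SGs). For each gene, the interaction is the log2 fold change of Combo over NaAsO2 minus the log2 fold change of RK-33 over Ctrl. It is positive where both agents together gave a level above the sum of their single log2 effects and negative where they gave a level below it. The 12 soluble libraries of the 24 libraries of the series entered, and 17105 of the 60308 genes in the exon table averaged at least 1 CPM (counts scaled to a common library size) and were tested. The 4 treatments had 3 libraries each. Ctrl cells received 0.12% DMSO for 2 h, NaAsO2 cells 500 µM for 60 min, and RK-33 cells 6 µM with 1 h of pre-treatment. Combo cells received RK-33 and then NaAsO2 at these doses. Whether the NaAsO2 cells also received DMSO is not given in the sources used here. The study asked how DDX3 activity shapes the RNA of SGs and P-bodies, and its authors cleared the lysates of nuclei and took the supernatant of a faster spin as the soluble and its pellet as the insoluble fraction. All libraries come from 1 cell line, and RNA that left the supernatant and RNA that was degraded or not made cannot be told apart in the soluble fraction alone.

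As background, arsenite binds thiols of proteins and depletes glutathione. Cells answer with the heat shock response through HSF1, the oxidative stress response through NRF2, metallothionein induction through MTF1, and the integrated stress response, in which phosphorylation of eIF2α stops most translation while ATF4 and its targets are made. Untranslated mRNAs then condense into SGs, in which DDX3 is found. When agents act on a transcript independently and each multiplies its level by a factor, their log2 effects add, and this additive level is the reference used for every gene here. It is a reference scale and not a model of what either agent does.

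A soluble library held 8627294 to 15291141 exon counts, and introns took 13.3% to 28.4% of exon plus intron counts. Replicate 3 of RK-33 stood apart from the other 11 soluble libraries, with the lowest intron share (13.3%), the highest share of counts on RN7SL genes (15.9%, against 7.69% to 13.4% elsewhere) and a chi-square per degree of freedom of 32.4 and 23.1 against its own replicates, where other replicate pairs gave 2.91 to 7.01. Replicate 3 of Combo had the highest intron share (28.4%). Results that rest on these libraries are given with and without them. The mesenchymal and bone genes VIM (832 to 1078 CPM), SPARC (1476 to 2688 CPM), COL1A1 (779 to 1511 CPM) and RUNX2 (57.6 to 79.7 CPM) were measured in each soluble library, TWIST1 was at or near 0 (at most 0.232 CPM), and the markers of other cell types lay at 0 for CD3E and at most 7.91 CPM, for EPCAM.

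Genes above the additive level were far more numerous than genes below it. By edgeR's quasi-likelihood test with Benjamini-Hochberg adjustment, 532 genes (3.11% of those tested) had a positive and 39 genes (0.228%) a negative interaction at an adjusted p under 0.05 and an absolute log2 interaction of at least 1. By the adjusted p alone, 1691 genes (9.89%) lay above and 1432 (8.37%) below, and 5627 genes had an unadjusted p under 0.05. The median interaction of all genes was 0.04, and scaling by library size alone moved it by 0.133, which gave 716 genes above and 9 below. Without replicate 3 of RK-33 the counts were 442 and 13. With replicate 3 of both RK-33 and Combo left out, an alternative chosen after seeing the data, they were 312 and 23, of which 299 and 11 were among the 532 and 39. These are shares of a library, so that fewer copies of an RNA per cell and a larger pool of other RNA cannot be told apart.

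**Figure D1:**
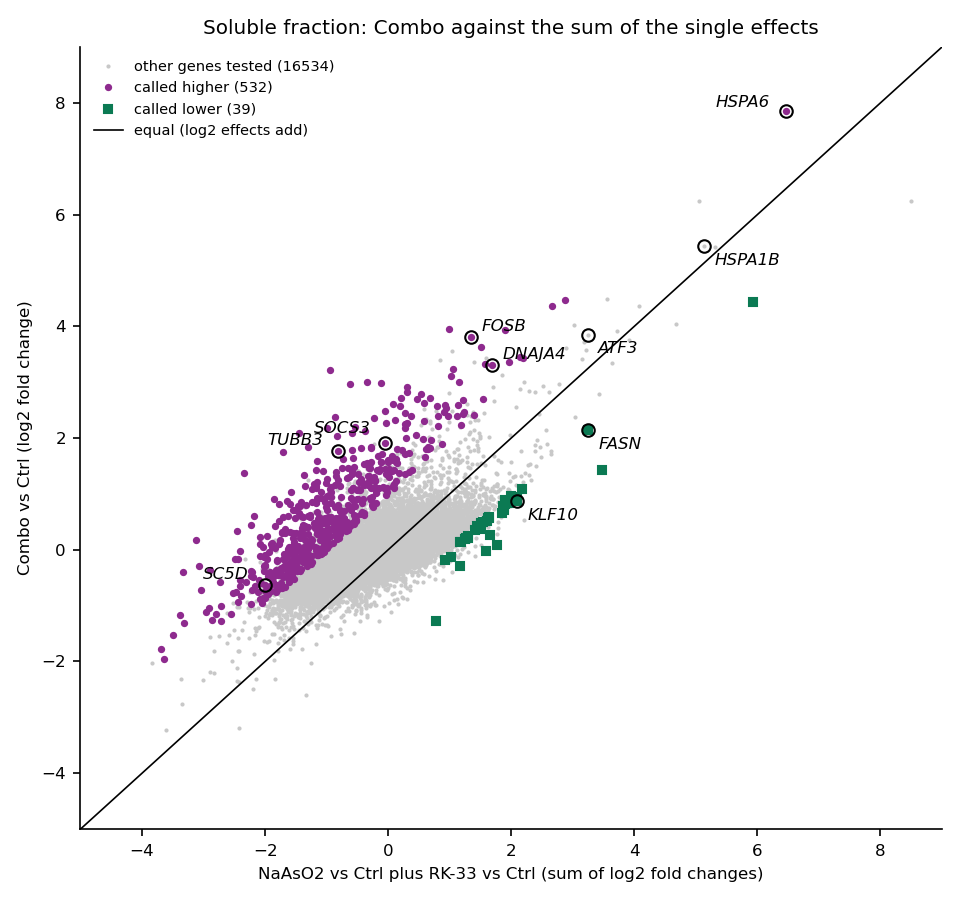
Log2 fold change of Combo over Ctrl (y axis) against the sum of the log2 fold changes of NaAsO2 and RK-33 over Ctrl (x axis) for 17105 genes of the soluble fraction, with genes called above (532, circles) and below (39, squares) the line of additive effects. Genes above the line lie mostly at sums under 0, genes below it at sums over 0, and HSPA6 stands above the line at the upper right while HSPA1B is close to it.

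The 532 genes above the additive level did not share a single pattern of response. In Combo, 233 of them were higher than in Ctrl at an adjusted p under 0.05, 41 were lower, and 258 did not pass. Of the 233, 169 passed the test in neither single treatment, a share that was 25 of 65 among genes averaging 10 CPM or more, and a p that misses the threshold does not show that a single agent left a gene as it was. In another 183 genes, at least 1 agent alone lowered the level and Combo did not differ from Ctrl past the test. All 3 Combo libraries lay above the other 9 libraries in 260 of the 532 genes (48.9%, against 6.32% of all genes tested), which follows in part from their selection on these libraries and supports nothing further. Replicate 3 of Combo was the highest of the 12 libraries in 295, replicate 2 in 71 and replicate 1 in 14. Among the 116 of them that averaged 10 CPM or more, 65 were higher in Combo than in Ctrl and 83 were above both NaAsO2 and RK-33.

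The 39 genes below the additive level were more alike in their single effects. NaAsO2 alone raised 32 of them and RK-33 alone 30. All 30 were raised by each agent alone, against 1002 of the 17105 genes tested. These single effects are part of the interaction by which the genes were selected. Their likeness follows in part from that selection and supports nothing further. Combo was above Ctrl in 23 of the 39, below in 1 and not past the test in 15. The Combo mean lay between the means of the other groups in 33 of the 39. All 3 Combo libraries lay below the other 9 in 1 of 39 genes (2.56%, against 2.91% of all genes tested). RK-33 replicate 3 was the highest of the 12 libraries in 18 of the 39. Leaving out each of the 12 libraries in turn, 230 of the 532 and 6 of the 39 genes were called in every fit.

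Among the leading genes above the additive level, some were higher in Combo than in every other library. TUBB3, a neuronal β-tubulin, lies on chromosome 16 from 89921392 to 89938761 (GRCh38). It had 15.5, 12.5 and 16.9 CPM in Ctrl, 8.91, 9.66 and 9.28 in NaAsO2, 16.1, 12.2 and 12.4 in RK-33, and 43.7, 44.9 and 64.05 in Combo. The Combo libraries were the highest, the NaAsO2 libraries the lowest, and neither overlapped another group. Additive effects would have given 8.48 CPM, and the interaction was 2.58 (SE 0.23, adjusted p = 3.05e-06). Of its exon bases, 21.3% also belong to another gene, ENSG00000198211, so its counts are uncertain.

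SOCS3, a feedback inhibitor of cytokine signalling on chromosome 17 (78356778 to 78360077), passed the test in the soluble fraction with neither agent alone. In the insoluble libraries it had 27.4 to 44.8 CPM in NaAsO2 against 10.35 to 13.55 in Ctrl, and that single effect was not tested. The soluble values follow. It had 19.8, 22.3 and 18.7 CPM in Ctrl, 22.8, 16.8 and 19.8 in NaAsO2, 21.1, 16.1 and 23.3 in RK-33, and 64.8, 74.8 and 89.0 in Combo. Ctrl, NaAsO2 and RK-33 overlapped and Combo lay above all of them, with an interaction of 1.96 (SE 0.20, adjusted p = 5.98e-06). TENT5C, a noncanonical poly(A) polymerase on chromosome 1 (117606048 to 117628389), had 24.6 to 28.1 CPM in Ctrl, 27.5 to 33.1 in NaAsO2 and 30.5 to 31.2 in RK-33, but 92.8, 106 and 125 in Combo. Its interaction was 1.60 (SE 0.15, adjusted p = 5.06e-06). In the insoluble libraries TENT5C had 18.1 to 23.6 CPM in Ctrl, 32.85 to 39.98 in NaAsO2 and 35.9 to 42.6 in RK-33, single effects that were not tested. FOSB, an AP-1 subunit and immediate early gene on chromosome 19 (45467995 to 45475179), had 8.23, 7.24 and 6.59 CPM in Ctrl, 12.8, 19.7 and 15.3 in NaAsO2, 10.1, 8.99 and 6.62 in RK-33, and 88.95, 94.6 and 126 in Combo. NaAsO2 was above Ctrl without overlap, RK-33 overlapped Ctrl, and Combo was 13.97-fold over the Ctrl mean where additive effects would have given 18.8 CPM. The interaction was 2.46 (SE 0.25, adjusted p = 5.98e-06). The interactions of these 4 genes stayed above 1 with adjusted p between 4.93e-08 and 0.000131 when each soluble library was left out in turn.

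CECR2, RAB26 and SNHG12 were lower than Ctrl under NaAsO2 alone (log2 fold changes -1.15, -1.16 and -0.70) and not under both agents. CECR2, a bromodomain chromatin remodelling factor on chromosome 22 (17359949 to 17558151), had 44.5, 41.8 and 43.9 CPM in Ctrl, 23.3, 20.01 and 15.8 in NaAsO2, 39.8, 39.1 and 33.8 in RK-33, and 56.4, 51.9 and 64.8 in Combo. The NaAsO2 libraries were below and the Combo libraries above all others. Its interaction was 1.76 (SE 0.16, adjusted p = 4.47e-06). RAB26, a vesicle-trafficking GTPase on chromosome 16 (2140803 to 2154165), fell from 17.5 to 19.8 CPM in Ctrl to 7.41 to 9.76 in NaAsO2 and stood at 21.1, 30.2 and 32.6 in Combo, with an interaction of 2.08 (SE 0.21, adjusted p = 5.98e-06). SNHG12, a host gene of small nucleolar RNAs on chromosome 1 (28578538 to 28583132), fell from 31.4 to 39.1 CPM in Ctrl to 21.5 to 22.3 in NaAsO2 and stood at 66.2, 74.9 and 88.15 in Combo, with an interaction of 1.68 (SE 0.17, adjusted p = 5.98e-06). A different pattern was seen for the lncRNA ENSG00000230392, which NaAsO2 alone did not change past the test (-0.19, adjusted p = 0.19) and RK-33 alone raised (0.32, adjusted p = 0.034). ENSG00000230392 on chromosome X (119291529 to 119335610) had 14.2 to 23.3 CPM in the 9 other libraries and 49.8, 51.7 and 56.2 in Combo, with an interaction of 1.49 (SE 0.15, adjusted p = 5.5e-06).

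**Figure D2:**
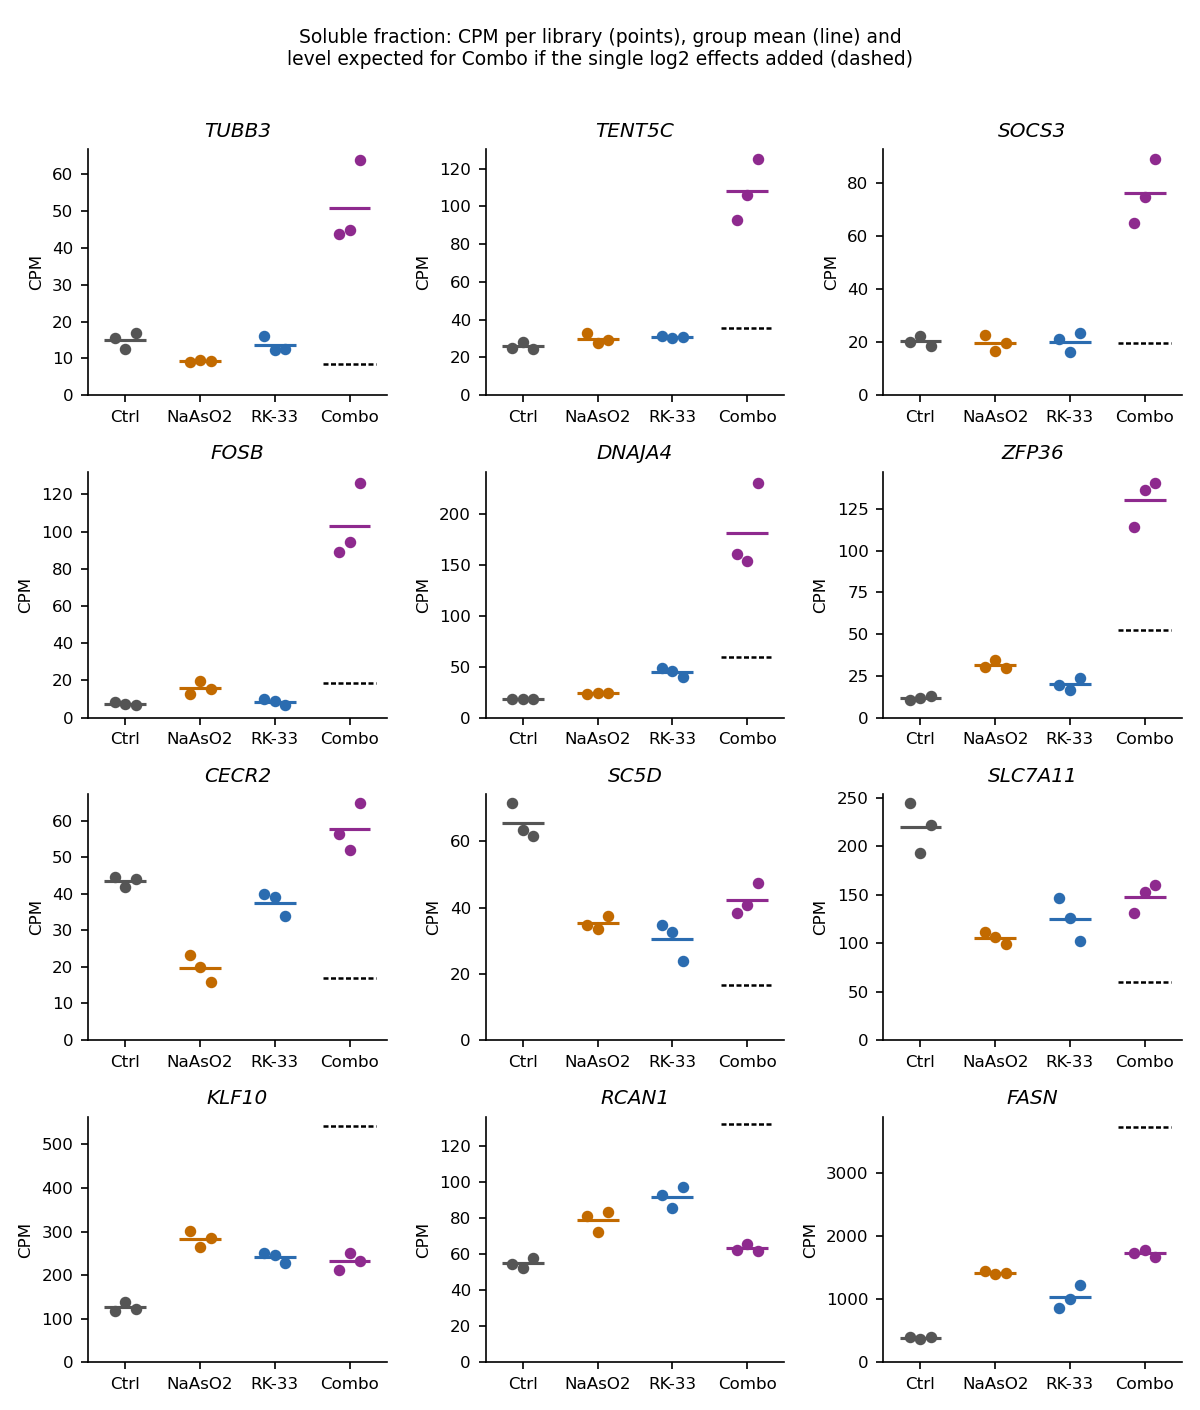
CPM (y axis, from 0) of 12 genes in each soluble library of Ctrl, NaAsO2, RK-33 and Combo, with the group mean as a line and the Combo level that additive log2 effects would give as a dashed line. Combo stands above the other groups for TUBB3, TENT5C, SOCS3, FOSB, DNAJA4, ZFP36 and CECR2, between Ctrl and the single agents for SC5D and SLC7A11, and below the dashed line for KLF10, RCAN1 and FASN.

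Genes below the additive level were mostly raised by either agent and raised no further by both. KLF10, a TGF-β-inducible transcription factor, had 117, 139 and 124 CPM in Ctrl, 300.2, 264.5 and 286 in NaAsO2, 251, 246 and 229 in RK-33, and 212, 252 and 232 in Combo. Both agents raised it without overlap with Ctrl, and Combo overlapped RK-33 and lay below NaAsO2, whereas additive effects would have given 542 CPM. The interaction was -1.23 (SE 0.12, adjusted p = 5.98e-06). RCAN1, a calcineurin inhibitor on chromosome 21 (34513142 to 34615113), had 54.5, 52.3 and 58.2 CPM in Ctrl, 81.45, 72.3 and 83.6 in NaAsO2, 92.8, 86.1 and 97.6 in RK-33, and 62.7, 65.9 and 61.8 in Combo. Here Combo lay below both single treatments without overlap, and it was not past the test against Ctrl (log2 fold change 0.21, adjusted p = 0.0727). Its interaction was -1.06 (SE 0.12, adjusted p = 1.57e-05), and 13.2% of its exon bases are shared with ENSG00000288711.

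FASN, the fatty acid synthase on chromosome 17 (82078338 to 82098294), had 405, 369 and 407.5 CPM in Ctrl, 1443, 1396 and 1419 in NaAsO2, 866, 1010.0 and 1225 in RK-33, and 1741, 1780.0 and 1670.0 in Combo. The 4 groups did not overlap and Combo was the highest, yet well under the 3729 CPM that additive effects would have given. The interaction was -1.11 (SE 0.15, adjusted p = 7.24e-05), and -0.97 without replicate 3 of RK-33, short of the fold limit. MVP, the major vault protein, rose from 56.6 to 63.9 CPM in Ctrl to 126 to 136 in NaAsO2 and 95.5 to 133 in RK-33, and stood at 96.0 to 123 in Combo (interaction -1.20, SE 0.15, adjusted p = 5.08e-05). The deubiquitinase USP5 (-1.13, SE 0.16, adjusted p = 0.000101) behaved alike, at 137 to 165 CPM in NaAsO2 and 109 to 143 in Combo. The remaining 3 of this direction were OGDH, a subunit of the 2-oxoglutarate dehydrogenase complex (-1.07), XAB2, a splicing and repair factor (-1.05), and the actin-binding protein MISP (-1.05). Each was near the fold limit and fell short of it without 1 library, OGDH at -0.99 without Combo replicate 2, XAB2 at -0.93 without RK-33 replicate 3 and -0.99 without Combo replicate 2, and MISP at -0.92 and -0.95 without replicate 3 of RK-33 or of Combo. With library size alone as the scaling, KLF10 (-1.095) stayed past the limit of 1, whereas RCAN1, OGDH, FASN, XAB2, USP5 and MISP lay at -0.91 to -0.995.

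Heat shock genes had median log2 fold changes of 0.41 under NaAsO2, 0.61 under RK-33 and 1.03 under both. All list counts here and below stand beside those of all genes tested. Of these genes, 3.11% were called above and 0.228% below, and by the adjusted p alone 9.89% lay above and 8.37% below. An unadjusted p under 0.05 was found for 5627 of the 17105 genes, the background for such counts in a list. Several lists lie near these shares. Of 32 listed chaperones and cochaperones, 2 were called, DNAJA4 and HSPA6, both above the additive level, and by the adjusted p alone 7 were above and 1 below. The median interaction was 0.02, beside 0.04 for all genes, and it turned negative (-0.08) with the GC trend removed. All 3 Combo libraries lay above the other 9 in 20 of the 32, against 1081 of the 17105 genes tested (6.32%). Such a lead needs no interaction, since HSPA1A was among the 20 at 0.11 (adjusted p = 0.697). HSPA1B, an inducible HSP70, had 26.3, 30.7 and 25.9 CPM in Ctrl, 87.9, 77.4 and 91.0 in NaAsO2, 264, 298.5 and 385 in RK-33, and 1082, 1195 and 1304 in Combo. The groups did not overlap and each step was large, but the Combo mean of 1194 CPM lay close to the 974 CPM of additive effects (interaction 0.29, 95% interval -0.07 to 0.65, adjusted p = 0.247). HSPA1A and HSPA1B are nearly identical, and 36.6% of HSPA1B's exon bases are shared with another gene, so their counts are uncertain.

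HSPA6, an HSP70 made almost only under stress, had 0.774, 1.10 and 0.988 CPM in Ctrl, 4.345, 3.845 and 4.998 in NaAsO2, 14.9, 16.3 and 25.2 in RK-33, and 203, 212 and 258 in Combo. It increased 232-fold from Ctrl to Combo, and the groups did not overlap. Its interaction of 1.39 (SE 0.45, adjusted p = 0.0351) rested on few counts in Ctrl and NaAsO2. It lost the adjusted p without any 1 of the 3 Ctrl libraries, NaAsO2 replicate 1 or 2, RK-33 replicate 2 or Combo replicate 3, with values of 1.26 to 1.52 and adjusted p of 0.0515 to 0.117. DNAJA4, a J-domain cochaperone on chromosome 15 (78264086 to 78282196), was the firmest of the list. It had 18.1 to 18.7 CPM in Ctrl, 23.5 to 24.45 in NaAsO2, 40.35 to 49.3 in RK-33, and 161, 154 and 231 in Combo. The groups did not overlap, and the interaction was 1.62 (SE 0.19, adjusted p = 2.32e-05). DNAJB1, an HSP40, had 113, 138 and 128 CPM in Ctrl and 905.5, 911 and 1085 in Combo but did not pass (interaction 0.42, adjusted p = 0.0715). STIP1, the HSP70-HSP90 organizing protein, lay below the additive level at -0.76 (SE 0.12, adjusted p = 0.000395). DNAJB4 (0.72), BAG3 (0.61), IER5 (0.52), SERPINH1 (0.42) and HSPH1 (0.39) passed the adjusted p above it. The study states that ATF3, DNAJB1, HSPA6 and HSPA1B fell under both agents relative to NaAsO2 alone. In the soluble fraction, Combo over NaAsO2 went the other way, at log2 fold changes of 2.363, 2.077, 5.662 and 3.804. Their insoluble Combo libraries also lay above the NaAsO2 libraries. The study's plot of this contrast joined both fractions and used spike-in scaling, which was not used here. The reason for the difference was not tested.

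The promoters of HSPA6 and HSPA1B are shown because the first was called and the second, with a large rise under each agent, did not pass the test of the interaction. Each line gives the 250 bases before the RefSeq start on GRCh38.p14, and capitals mark matches to GAANNTTC, a core of the heat shock element bound by HSF1. HSPA6 is on the plus strand at chr1:161524290-161524539, with matches beginning 180 and 69 bases before the start. HSPA1B is on the plus strand at chr6:31827488-31827737, with 1 match beginning 105 bases before the start.
HSPA6: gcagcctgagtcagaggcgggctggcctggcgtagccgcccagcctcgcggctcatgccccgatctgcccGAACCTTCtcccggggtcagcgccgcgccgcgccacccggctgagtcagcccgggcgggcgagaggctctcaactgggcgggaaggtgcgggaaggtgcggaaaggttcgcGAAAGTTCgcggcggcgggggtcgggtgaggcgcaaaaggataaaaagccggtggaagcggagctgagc
HSPA1B: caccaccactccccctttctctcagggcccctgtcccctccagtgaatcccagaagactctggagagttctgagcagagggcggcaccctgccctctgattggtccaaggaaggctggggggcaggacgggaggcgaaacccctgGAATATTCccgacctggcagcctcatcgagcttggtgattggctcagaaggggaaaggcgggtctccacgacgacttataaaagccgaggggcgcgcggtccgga
Of the 11631 tested genes with a promoter in the RefSeq table, 4.79% held this motif in the 300-base window that ends 50 bases after the start, on either strand. Among genes above the additive level the share was 6.45% of 248, and among those below it 4.76% of 21.

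Immediate early genes split between both directions by the adjusted p, but the split depended on the processing. Of 25, FOSB and ARC were called, both above the additive level, and by the adjusted p alone 5 were above and 6 below it, with a median of 0.04. Without replicate 3 of RK-33 these counts were 9 and 3, and without replicate 3 of RK-33 and Combo 7 and 3. They were 8 and 1 with library size alone and 7 and 1 with the GC trend removed (median 0.20). RLE factors gave 5 and 6. ARC, a neuronal activity-regulated gene, had 105, 123 and 116 CPM in Ctrl, 187, 177.5 and 206 in NaAsO2, 152, 175 and 221 in RK-33, and 550.5, 607 and 670.3 in Combo. Combo lay above all other libraries, while NaAsO2 and RK-33 overlapped each other, and the interaction was 1.01 (SE 0.16, adjusted p = 0.000348). It fell under the fold limit, at 0.90 to 0.995, without Ctrl replicate 2, NaAsO2 replicate 1 or 2, RK-33 replicate 1 or 2 or Combo replicate 3. ATF3, a stress-induced transcription factor, had 26.7, 28.95 and 27.3 CPM in Ctrl, 86.5, 72.4 and 74.25 in NaAsO2, 93.5, 88.75 and 98.0 in RK-33, and 359, 388 and 451 in Combo. Its groups did not overlap, and Combo was 14.4-fold over Ctrl. The interaction of 0.61 (SE 0.14, adjusted p = 0.0052) was past the adjusted p but not the fold limit. The antiproliferative genes BTG1 (0.92) and BTG2 (0.91) passed the adjusted p above the additive level, and JUNB (-0.76), SRF (-0.54), IER3 (-0.52), IER2 (-0.46), NR4A1 (-0.45) and FOSL1 (-0.44) below it.

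Feedback regulators of cytokine and MAP kinase signalling were tested next. Of 18 NF-κB feedback, cytokine and AU-rich element genes, 2 were called, both above the additive level, and by the adjusted p alone 3 were above and 2 below, with a median of 0.19. ZFP36, which destabilizes mRNAs with AU-rich elements, lies on chromosome 19 from 39406847 to 39409412. It had 10.7, 11.8 and 13.1 CPM in Ctrl, 30.5, 34.4 and 29.7 in NaAsO2, 19.4, 16.3 and 23.75 in RK-33, and 114, 136 and 141 in Combo. Its groups did not overlap, and the interaction was 1.31 (SE 0.18, adjusted p = 0.000103). NFKBIZ, an inducible nuclear IκB protein, had 25.9 to 35.5 CPM in Ctrl, 31.5 to 36.6 in NaAsO2, 64.6 to 69.6 in RK-33, and 141, 158 and 211 in Combo. RK-33 raised it and NaAsO2 alone did not pass, and the interaction was 1.22 (SE 0.18, adjusted p = 0.000221). Of 11 MAP kinase feedback genes, edgeR and DESeq2 called 0, while 7 had an unadjusted p under 0.05, and the median of -0.03 turned positive (0.10) under library size alone. By the adjusted p alone, the ERK inhibitor SPRY2 (-0.77) and the dual-specificity phosphatases DUSP8 (-0.69), DUSP2 (-0.64), DUSP5 (-0.46) and DUSP1 (-0.41) lay below and SPRED1 (0.46) above the additive level. SPRY2 had 35.2 to 41.8 CPM in Ctrl, 43.5 to 51.2 in NaAsO2, 55.3 to 57.0 in RK-33 and 39.0 to 42.75 in Combo, so that Combo overlapped Ctrl.

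Targets of ATF4, the factor of the integrated stress response, held 3 called genes, all above the additive level. Of 29 targets, 7 were above and 4 below by the adjusted p alone, with a median of 0.12. CHAC1, which degrades glutathione, had 9.97, 9.90 and 8.89 CPM in Ctrl, 14.9, 13.5 and 14.3 in NaAsO2, 17.7, 17.85 and 21.6 in RK-33, and 57.1, 65.7 and 64.9 in Combo. The groups did not overlap, and the interaction was 1.15 (SE 0.16, adjusted p = 0.000116). SLC7A11, the cystine transporter subunit on chromosome 4 (138164097 to 138242349) that supplies glutathione synthesis, was lower with each agent. It had 244.5, 193 and 222 CPM in Ctrl, 111.5, 107 and 98.9 in NaAsO2, 147, 126 and 102 in RK-33, and 131, 153 and 160 in Combo. Ctrl stood above all other libraries, Combo overlapped RK-33, and additive effects would have given 60.2 CPM (interaction 1.29, SE 0.16, adjusted p = 5.08e-05). Its exons share 8.97% of their bases with SLC7A11-AS1. ASNS, asparagine synthetase, was called at 1.19 (adjusted p = 0.0316), with 49.3% of its exon bases shared with another gene and 7.59 to 10.4 CPM in Combo against 1.65 to 4.34 elsewhere. It passed without 4 of the 12 libraries and not without Ctrl replicate 1 or 3, any NaAsO2 library, RK-33 replicate 2 or 3 or Combo replicate 3 (0.99 to 1.28, adjusted p 0.0535 to 0.123). PPP1R15A, which recruits the phosphatase of eIF2α, was just short of the fold limit at 0.95 (SE 0.13, adjusted p = 0.000128), at 57.3 to 63.4 CPM in Ctrl and 339, 387 and 436 in Combo. VLDLR (0.72), SLC7A5 (0.58) and DDIT4 (0.48) passed the adjusted p above, and the tRNA synthetases AARS1 (-0.67) and SARS1 (-0.57) and the serine synthesis enzymes SHMT2 (-0.43) and PHGDH (-0.41) below the additive level.

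The promoters of CHAC1 and ATF3 are shown as stress-induced genes of this response that rose with each agent and further with both. Each line gives the 250 bases before the RefSeq start on GRCh38.p14, and capitals mark a match to TGATGNAA, the C/EBP-ATF response element, on either strand. CHAC1 is on the plus strand at chr15:40953221-40953470, with the match 209 bases before the start and on the minus strand. ATF3 is on the plus strand at chr1:212565157-212565406, with the match 191 bases before the start. Both windows overlap the counted gene, which begins at 40952962 for CHAC1 and at 212565334 for ATF3. Whether these starts are the ones used in these cells was not tested.
CHAC1: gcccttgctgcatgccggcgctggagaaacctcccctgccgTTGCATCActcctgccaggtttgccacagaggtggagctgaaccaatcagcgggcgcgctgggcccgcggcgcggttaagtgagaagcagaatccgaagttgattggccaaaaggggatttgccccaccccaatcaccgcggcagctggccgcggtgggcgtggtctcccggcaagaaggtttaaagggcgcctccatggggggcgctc
ATF3: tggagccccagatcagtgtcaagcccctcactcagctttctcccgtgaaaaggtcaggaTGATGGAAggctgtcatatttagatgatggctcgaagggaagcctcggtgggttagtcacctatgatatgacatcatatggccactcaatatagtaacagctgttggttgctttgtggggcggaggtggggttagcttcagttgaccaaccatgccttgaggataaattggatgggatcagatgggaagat
TGATGNAA was found in 1.87% of the 11631 windows, in 6 of the 248 windows of genes above the additive level (2.42%) and in 0 of the 21 below it. The AP-1 site TGANTCA was found in 5% of all windows, 8.06% of the 248 and 0 of the 21. The E-box CACGTG was found in 9.61% of all windows, 8.47% of the 248 and 19% of the 21 (4 genes). The other motifs searched were TGACGTCA (3.24% of all windows and 2.42% of the 248), the CArG box (1.07% and 1.61%) and TTCNNNGAA (6.24% and 5.24%). TGCNCNC was in 63.3% and 60.1%, and TGACNNNGC in 15.1% and 12.9%. None of these shares was tested.

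Genes of the oxidative and metal responses lay on both sides of the additive level. Of 27 NRF2 and BACH1 targets, SLC7A11 was called, and by the adjusted p alone 6 lay above and 4 below the additive level, with a median of -0.08 that turned positive under library size alone (0.06) and with replicate 3 of RK-33 and Combo left out (0.02). The members above were SLC7A11, GCLM (0.58) and GCLC (0.47), the subunits of glutamate-cysteine ligase, HMOX1 (0.56), which degrades heme, the repressor BACH1 (0.46) and the thioredoxin reductase TXNRD1 (0.34). Among those below were KEAP1 (-0.76), the inhibitor of NRF2, and the enzymes TKT (-0.68) and TALDO1 (-0.64) of sugar phosphate metabolism. HMOX1 had 16.3 to 20.9 CPM in Ctrl, 60.4 to 70.8 in NaAsO2, 21.3 to 27.1 in RK-33 and 122 to 135 in Combo, without overlap between the groups. Of 6 measured metallothionein and zinc export genes, 1 was called, and the median was 0.71. SLC30A1, the zinc exporter on chromosome 1 (211571568 to 211579161), had 879, 649.9 and 875 CPM in Ctrl, 702, 731 and 698 in NaAsO2, 681, 669 and 650.5 in RK-33, and 1115, 1258 and 1383 in Combo. Combo lay above the others, which overlapped, and the interaction was 1.08 (SE 0.15, adjusted p = 0.000116), or 0.99 with replicate 3 of RK-33 and Combo left out. MT1X was just short of the fold limit at 0.9994 (adjusted p = 0.000812), with 23.4 to 35.5 CPM in Ctrl, 264 to 295 in NaAsO2, 18.6 to 25.4 in RK-33 and 430 to 460 in Combo. RK-33 overlapped Ctrl, and Combo lay above NaAsO2 without overlap.

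By the adjusted p, ER and sterol genes lay more often above than below the additive level, with several of them lower than Ctrl in each single treatment. Of 24 ER chaperone and unfolded protein response genes, edgeR and DESeq2 called 0, 15 had an unadjusted p under 0.05, and by the adjusted p alone 12 were above the additive level and 1, HYOU1, below. Their median was 0.36, and it stayed at 0.27 to 0.50 under RLE factors, library size alone, the removal of the GC trend and the removal of the libraries numbered 3. DNAJC3, an ER cochaperone and PERK inhibitor, had 72.2, 62.5 and 63.0 CPM in Ctrl, 41.1, 40.6 and 41.5 in NaAsO2, 49.9, 47.2 and 45.5 in RK-33, and 49.45 to 50.4 in Combo (interaction 0.75, SE 0.12, adjusted p = 0.000266). Combo lay below Ctrl and above NaAsO2 and overlapped RK-33. MANF, a neurotrophic factor of the ER, had 48.6 to 49.5 CPM in NaAsO2, 51.2 to 55.4 in RK-33, 62.4 to 66.4 in Ctrl and 56.8 to 67.9 in Combo (0.60, SE 0.12, adjusted p = 0.00186), where Combo overlapped Ctrl. Of 20 genes of cholesterol synthesis and uptake, SC5D and INSIG1 were called above the additive level, and by the adjusted p alone 6 were above and 2 below, with a median of 0.19. SC5D, a sterol desaturase on chromosome 11 (121292681 to 121313410), had 71.5, 63.4 and 61.6 CPM in Ctrl, 34.9, 33.5 and 37.4 in NaAsO2, 34.8, 32.6 and 23.9 in RK-33, and 38.3, 40.9 and 47.4 in Combo. Ctrl stood apart at the top and Combo just above the single treatments, with an interaction of 1.36 (SE 0.16, adjusted p = 3.47e-05). INSIG1, which retains SREBP in the ER, was at 1.08 (adjusted p = 0.000451), and at 0.97 to 0.98 without NaAsO2 replicate 2, RK-33 replicate 1 or Combo replicate 3. MSMO1 (0.996, just short of the limit), IDI1 (0.68), SQLE (0.46) and HMGCS1 (0.45) lay above, and mevalonate kinase MVK (-0.90) and lanosterol synthase LSS (-0.50) below.

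Of the large housekeeping families, every member past the adjusted p lay below the additive level for the proteasome and the ribosome. Of 36 proteasome subunit and polyubiquitin genes, edgeR and DESeq2 called 0, 19 had an unadjusted p under 0.05, and by the adjusted p alone 13 lay below and 0 above, with a median of -0.30. PSMD2, a subunit of the 19S particle, had 298, 373 and 336 CPM in Ctrl, 695, 593 and 697 in NaAsO2, 423, 476 and 540.3 in RK-33, and 600.4, 555 and 431 in Combo. NaAsO2 and RK-33 each lay above Ctrl, Combo overlapped both, and the interaction was -0.84 (SE 0.17, adjusted p = 0.00221). PSMD1 was at -0.59 (SE 0.12, adjusted p = 0.003). Of 79 cytosolic ribosomal protein genes, edgeR and DESeq2 called 0, 54 had an unadjusted p under 0.05, and 33 lay below and 0 above by the adjusted p alone, with a median of -0.40. Without replicate 3 of RK-33 the 33 became 14 (median -0.28), and with library size alone 10 (median -0.26). RPL3 had 431, 531 and 478 CPM in Ctrl, 768, 758.5 and 836 in NaAsO2, 557, 658 and 824 in RK-33, and 753, 701.5 and 720.1 in Combo (-0.62, SE 0.16, adjusted p = 0.0114). FAU, a ribosomal and ubiquitin-like fusion gene, was at -0.65 (adjusted p = 0.011). In both families NaAsO2 had the higher single median, 0.41 and 0.38, and RK-33 had 0.04 in each.

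Most of the histone genes and small RNAs of RNA polymerase III that passed the adjusted p lay below. Of 38 replication-dependent histone genes, 14 lay below and 1 above by the adjusted p alone, with a median of -0.53, and without replicate 3 of RK-33 and Combo 9 lay below. The gene above was H2BC6, called at 1.97 (SE 0.51, adjusted p = 0.0118), with 0.768 to 1.355 CPM in the 9 other libraries and 4.37, 3.58 and 7.31 in Combo. It shares 28.2% of its exon bases with another gene and was at 1.74 with adjusted p = 0.0578 without Ctrl replicate 1. All 5 measured small RNAs of polymerase III lay below by the adjusted p (median -0.91), but 4 without replicate 3 of RK-33 (median -0.57) and 3 without replicate 3 of RK-33 and Combo (median -0.53). RN7SL3, a signal recognition particle RNA, had 1790.0, 2136 and 1615 CPM in Ctrl, 2802, 3171 and 3134 in NaAsO2, 2179, 2371 and 4414 in RK-33, and 2626, 2160.0 and 2282 in Combo. The RK-33 library at 4414 was replicate 3, and the interaction of -1.06 (SE 0.25, adjusted p = 0.00778) was -0.67 without it. Without Ctrl replicate 3 or Combo replicate 2 it was -0.96 and -0.99. RN7SL genes and their copies share reads, so single values are uncertain.

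The target of RK-33 and its relatives were measured as well. DDX3X, the gene of DDX3, had 429, 446.5 and 475 CPM in Ctrl, 512, 446 and 486 in NaAsO2, 417, 384 and 326 in RK-33, and 407, 429 and 418 in Combo. RK-33 lay below Ctrl and NaAsO2, and Combo overlapped Ctrl and RK-33. The interaction was 0.06 (95% interval -0.21 to 0.32, adjusted p = 0.799), and it turned negative under 4 alternatives, among them -0.0363 without RK-33 replicate 3. Of 40 DEAD and DEAH box helicases, EIF4A1 was called above the additive level, and by the adjusted p alone 2 were above and 14 below, with a median of -0.20. DDX54 (-0.80), DHX16 (-0.80), DHX30 (-0.76) and DHX9 (-0.74) were furthest below. DHX9 had 120 to 128 CPM in Ctrl, 264 to 289.5 in NaAsO2, 217 to 223 in RK-33 and 288.5 to 302 in Combo, so that Combo overlapped NaAsO2. Above the additive level stood the translation initiation helicases EIF4A2 and EIF4A1, whereas DHX29, which also acts in initiation, lay below (-0.37, adjusted p = 0.0341). EIF4A2 was at 0.93 (SE 0.13, adjusted p = 0.000116), with 130 to 207 CPM in the 9 other libraries and 345, 368 and 411 in Combo. EIF4A1 was at 1.40 (SE 0.25, adjusted p = 0.000886), with only 5.52 to 9.33 CPM in the 9 other libraries and 12.97, 13.9 and 16.8 in Combo. Of its exon bases, 47.4% belong also to other genes, among them SENP3-EIF4A1, so its counts are uncertain. Of 20 stress granule proteins, EIF4A1 was called, and NUFIP2 (0.51) lay above and ATXN2L (-0.45) and EIF4G1 (-0.41) below by the adjusted p, with a median of -0.04 that turned positive (0.09) under library size alone.

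In the remaining groups, members past the adjusted p lay on both sides. Of 17 SR splicing factors and CLK kinases, CLK1 was called, and by the adjusted p alone 3 were above and 2 below, with a median of 0.19 that was -0.01 with the GC trend removed. CLK1, which phosphorylates SR proteins, had 30.4 to 38.2 CPM in Ctrl, 23.8 to 27.7 in NaAsO2, 31.5 to 45.4 in RK-33 and 56.0, 57.6 and 63.3 in Combo. Combo was the highest and NaAsO2 the lowest, with an interaction of 1.05 (SE 0.17, adjusted p = 0.000347), and 0.96 and 0.935 without Ctrl replicate 1 or RK-33 replicate 3. Of 12 KLF transcription factors, KLF10 was called below and KLF12 above (1.01, adjusted p = 0.000487), with a median of -0.04 that was 0.09 under library size alone. KLF12 was at 0.89 to 0.995 without Ctrl replicate 2, NaAsO2 replicate 3, RK-33 replicate 3 or Combo replicate 3. Of 18 p53 and GADD45 genes, edgeR and DESeq2 called 0, 10 had an unadjusted p under 0.05, and by the adjusted p alone 2 were above and 6 below, with a median of -0.22 that was -0.07 without RK-33 replicate 3 and -0.08 (2 below) under library size alone. TP53INP1, a p53-induced autophagy factor, had 28.1 to 28.8 CPM in Ctrl, 15.3 to 19.05 in NaAsO2, 18.7 to 22.55 in RK-33 and 19.5 to 26.6 in Combo (0.90, SE 0.17, adjusted p = 0.00164). FDXR, a mitochondrial ferredoxin reductase, was at -0.79 (SE 0.17, adjusted p = 0.00441).

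**Figure D3:**
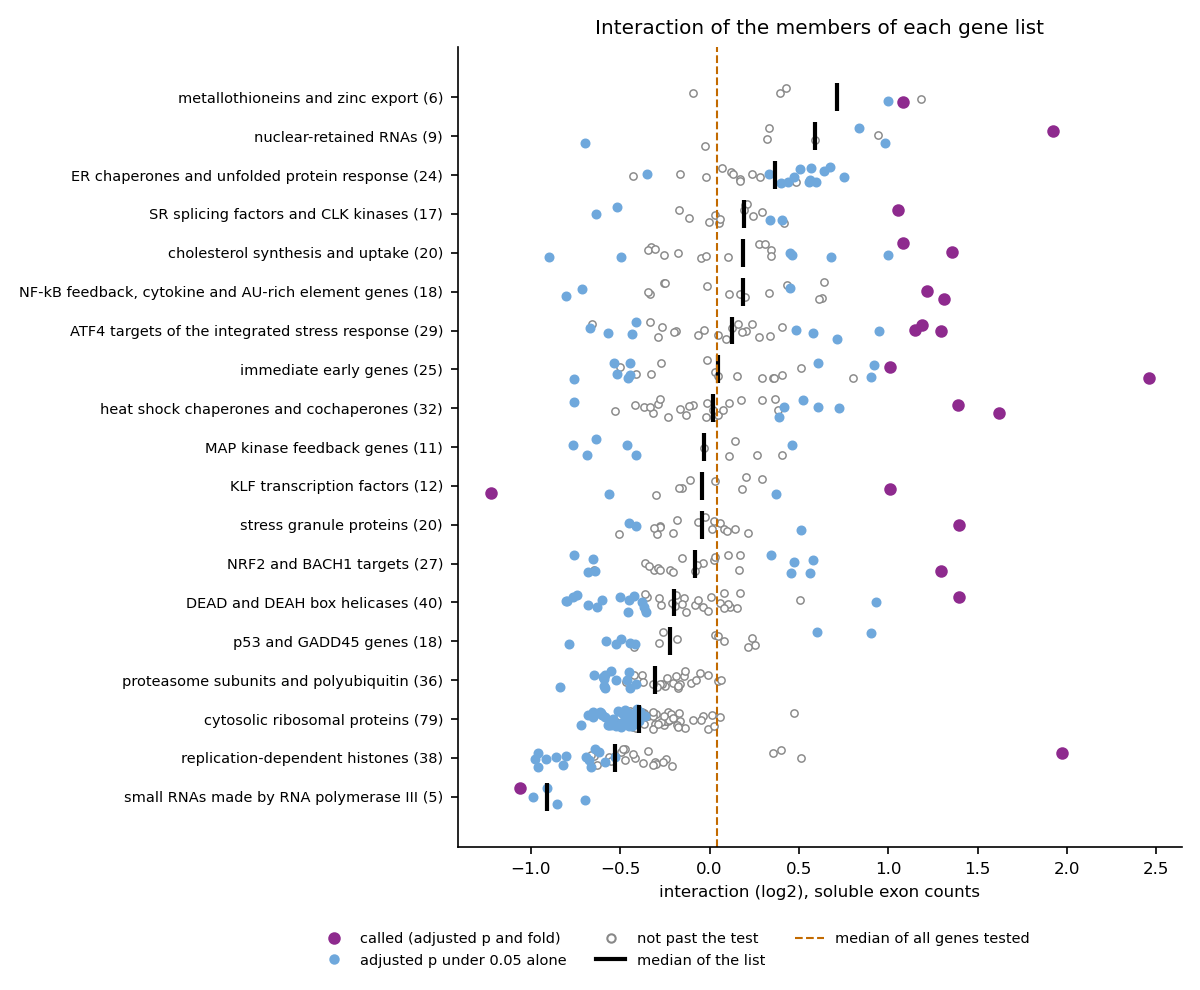
Interaction (x axis, log2, soluble exon counts) of each measured member of 19 gene lists, with the number of members in brackets, the list median as a bar and the median of all genes tested (0.04) as a dashed line. Purple points were called, blue points passed the adjusted p alone and open points did not, and the proteasome, ribosomal, histone and polymerase III lists lie left of the dashed line while the metallothionein and ER lists lie right of it.

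Rare lncRNAs made up much of the set above the additive level. Of the 527 genes of the 532 with a type in the annotation, 246 were lncRNAs (46.7%, against 16.2% of all genes tested), and 336 of the 532 had a mean under 5 CPM. At a mean of 10 CPM or more the lncRNA share was 16.7%, against 3.5% of all such genes. The median exon GC content was 47.3% in the genes above and 58.3% in those below, against 47.9% over all, and 26 of the 37 genes below with a GC value lay in the highest of 4 equal classes of GC content (55.6% to 76.3%). With each library's trend against GC removed, chosen after seeing the data, 527 genes were above and 18 below, of which 464 and 12 were the same genes. In protein-coding transcripts, the instability motif ATTTA had a median of 1.18 per kb in genes above, 0.236 in genes below and 1.12 over all.

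Among 9 measured nuclear-retained RNAs, 1 was called, 3 lay above and 1 below by the adjusted p alone, and the median of 0.59 was 0.19 with replicate 3 of RK-33 and Combo left out. KCNQ1OT1, the antisense imprinting transcript on chromosome 11 (2608328 to 2699994), had 15.8 to 18 CPM in Ctrl, 13.5 to 15.4 in NaAsO2, 14.5 to 15.6 in RK-33, and 31.9, 34.2 and 81.0 in Combo. Combo lay above all others and its replicate 3 stood well above the others, at an interaction of 1.92 (SE 0.35, adjusted p = 0.00118). NEAT1, the scaffold of paraspeckles, was at 0.98 (adjusted p = 0.00231), with 552, 629 and 759 CPM in Combo against 278 to 582.5 elsewhere. MALAT1, of nuclear speckles, was at 0.84 (adjusted p = 0.0208), with 8470, 9913 and 11600.0 CPM in Combo and 5825 to 15610.0 elsewhere. The summed CPM (by library size, without TMM) of the 10 nuclear RNAs above 0 was 15050 to 21260 in Ctrl, 11120 to 13570 in NaAsO2, 13910 to 19040 in RK-33 and 14840 to 18550 in Combo, and RN7SK and RPPH1 were at 0. NaAsO2 was thus the lowest on this scale, but MALAT1 and RMRP made up most of the sum and moved in opposite directions. MALAT1 had 10860 to 16370 CPM in Ctrl and 5454 to 7777 in NaAsO2 on this scale, and RMRP had 3433 to 3980 and 5207 to 6324. The part of nuclear RNA in the interactions was not tested. NORAD, a cytoplasmic lncRNA that binds Pumilio proteins, had 277 to 309 CPM in Ctrl, 165 to 186 in NaAsO2, 261 to 268 in RK-33 and 209 to 255 in Combo (0.57, SE 0.12, adjusted p = 0.0039, under the fold limit).

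Intron counts of the same soluble libraries were tested with the same contrast. Of 17720 genes with introns tested, 490 (2.77%) were above and 146 (0.824%) below the additive level. Of the 265 genes above in exons that were tested in introns, 58 were also called above in introns (21.9%, against 3.25% of the 13028 genes tested in both) and 1 below, and the interaction was positive in 222. Of 28 genes below in exons, 1 was called below in introns (3.57%, against 0.929%), and the interaction was positive in 4. TENT5C introns had 16.9 to 28.5 CPM of intron counts in Ctrl, 42.4 to 43.9 in NaAsO2, 19.97 to 22.55 in RK-33, and 188, 197 and 234.5 in Combo (2.26, SE 0.25, adjusted p = 2.76e-06). RAB26 (2.30), SNHG12 (1.80), SC5D (1.48), SLC7A11 (1.19), INSIG1 (1.17) and DNAJA4 (1.17) were above in introns as well. CECR2 went the other way, at -0.83 in introns (SE 0.21, adjusted p = 0.0161) and 1.76 in exons. DDX3X introns were at 41.4, 50.7 and 43.7 CPM of intron counts in Combo against 15.9 to 24.5 elsewhere (0.96, SE 0.27, adjusted p = 0.0294), short of the fold limit. KLF10 introns did not pass (-0.06, adjusted p = 0.95), although exons were at -1.23.

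The insoluble fraction gave 12 other libraries. There, 124 of 17937 genes (0.691%) were above and 71 (0.396%) below the additive level. Of 425 genes above in the soluble fraction and tested, 36 were called above in the insoluble fraction (8.47%, against 0.731% of the genes tested in both) and the interaction was positive in 358. Replicate 3 of NaAsO2 stands apart from the other insoluble libraries, and without it 96 of 426 were called and 365 positive, against 309 of 16287 genes tested in both. Of the 35 genes below that were tested, 2 were called below with and without that library, but 5 were positive with it and 17 without it. The insoluble count depended on single libraries, since the 195 genes called became 3 without Ctrl replicate 1 or RK-33 replicate 3 and 520 without NaAsO2 replicate 3. KLF10 (-1.68, SE 0.35, adjusted p = 0.0391) and RCAN1 (-1.25, SE 0.22, adjusted p = 0.0275) were below in both fractions, and DNAJA4 (1.62), TUBB3 (1.82), SNHG12 (1.49), ENSG00000230392 (1.68), SLC7A11 (1.41) and KCNQ1OT1 (1.60) above in both. SPRY2, at -0.77 in the soluble fraction, was called below in the insoluble fraction at -1.24 (SE 0.17, adjusted p = 0.0121). In the fit of all 24 libraries, the interaction differed between the fractions for 325 of 17666 genes (1.84%), higher in the soluble fraction for 119 and lower for 206 (312 and 89 with library size alone). With the lysate as a block, since both fractions come from it, 8 genes passed (3 higher and 5 lower). Of 496 genes above in the soluble fraction, 18 were among the 119. Of 37 genes below, 1 was among the 206, XAB2, which did not pass with that block.

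**Figure D4:**
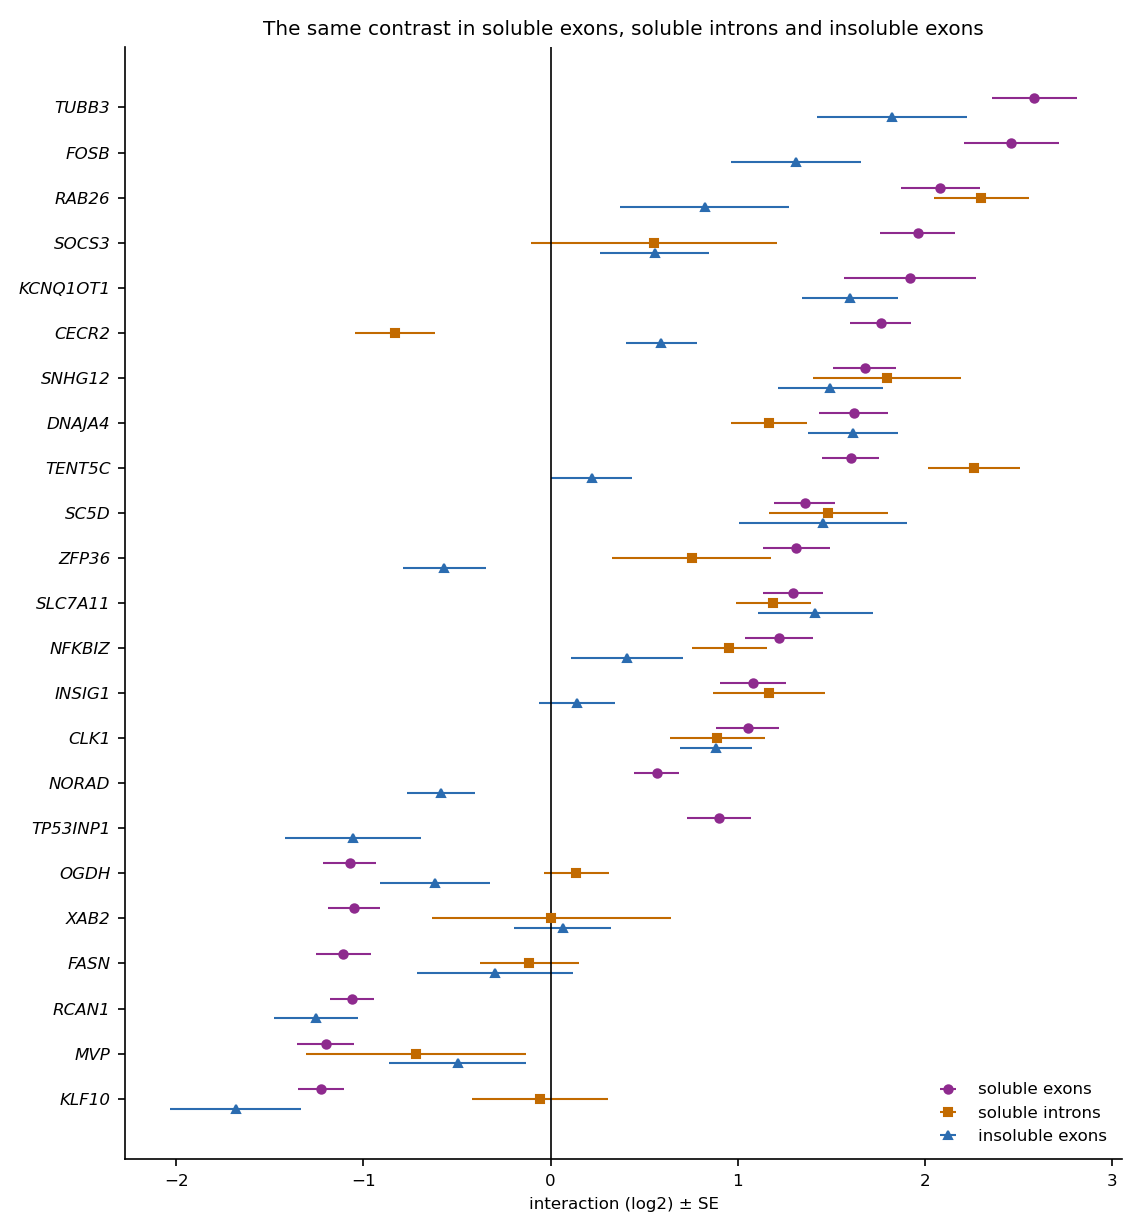
Interaction (x axis, log2, bars are ± SE) of 23 named genes in soluble exons (circles), soluble introns (squares) and insoluble exons (triangles), with introns left out where they were not tested. The readouts lie together for DNAJA4, SNHG12, SC5D and SLC7A11, and the introns of CECR2 and the insoluble exons of ZFP36, NORAD and TP53INP1 lie on the other side of 0 from the soluble exons. So do the introns of OGDH (0.14) and, close to 0, the introns (0.003) and insoluble exons (0.07) of XAB2.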

How the data were processed

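RNA of the soluble and insoluble cytoplasm of U2OS cells had been sequenced as 24 directional, paired-end libraries. The authors aligned the reads with STAR 2.7.2b to GRCh38.p13 and counted uniquely aligned fragments on the exons and introns of GENCODE genes with featureCounts 1.5.3, as named in the submitters' processing notes and, per the file headers, without strand. The deposited values are raw counts, and no column belonged to a sample outside the series. Without strand, reads of a gene and its antisense or overlapping partner cannot be told apart, and shared exon bases were taken from a later GENCODE release on GRCh38. Spike-in counts were not used here.

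Samples were grouped by GEO's labels. Per the study's methods the fractionation and sequencing experiment was done 3 times for each condition, so p-values measure the spread between these runs of 1 cell line. The labels do not tie the replicate numbers of different treatments to a shared run. Exon counts of the 12 soluble libraries (8627294 to 15291141 each) were fitted as 4 groups with edgeR 4.0.16 in R 4.3.3 (TMM, mean of at least 1 CPM, glmQLFit and glmQLFTest; the likelihood ratio test of the study's methods is an alternative), with the contrast (Combo minus NaAsO2) minus (RK-33 minus Ctrl). A gene was called where its p after Benjamini-Hochberg adjustment was under 0.05 and its log2 interaction was 1 or more in size. CPM are TMM-scaled, and SE is the log2 interaction divided by the root of its F. The same test was run on soluble introns, insoluble exons and, over 24 libraries, the difference between fractions. On simulated counts for the 17105 genes of the soluble exon interaction, recovery was scored by the adjusted p alone, without the fold limit. It reached 94 of 100 changes of 1 and 100 of 100 changes of 2 on the log2 scale, with 7 false calls. These values do not give the recovery of calls past both limits.

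Named were the 8 genes with the smallest adjusted p in each direction past both limits and a mean of at least 10 CPM, the called members of 19 gene lists (at most 5 a list, otherwise the 2 with the smallest p), the stress genes that the study names, and DDX3X. List members beyond these are named because they passed the adjusted p or lay near the fold limit, and were chosen after their values were seen, like the intron genes of the closing section. Members and lists were chosen with earlier results of these data known. Promoter sequences came from the RefSeq table of GRCh38.p14, which held 38 of 48 named genes. Alternatives were RLE factors, library size alone, RN7SL genes left out, edgeR's likelihood ratio test, DESeq2 1.42.0, no filter or a stricter one, other fold limits, summed exon and intron counts, a replicate block, all 24 libraries, each library left out, and, chosen after seeing the data, the removal of the GC trend (lowess span 0.3) and of 2 libraries numbered 3 together. Figures were drawn with matplotlib 3.10.9.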

Additional observations from a re-analysis of the deposited data

Results flagged for a closer look

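By edgeR's test of the difference itself, the interaction differed between the soluble and insoluble fractions for 325 genes (adjusted p under 0.05, absolute log2 difference of at least 1). That fit ignores that both fractions come from the same lysates. With the lysate as a block, 8 genes passed. Among the 325 were 6 of the genes named in the report, and none of these 6 passed with that block. The difference, from the joint fit of all 24 libraries, was 1.80 for ZFP36 (soluble 1.31, insoluble -0.57, adjusted p = 0.00378), 1.87 for TP53INP1 (0.90 and -1.06, adjusted p = 0.0162), 1.29 for TENT5C (1.60 and 0.22, adjusted p = 0.012), 1.08 for CECR2 (1.76 and 0.59, adjusted p = 0.025), 1.06 for NORAD (0.57 and -0.58, adjusted p = 0.0114) and -1.21 for XAB2 (-1.05 and 0.07, adjusted p = 0.0391).

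In the insoluble fraction, ZFP36 had 3.465 to 4.88 CPM in Ctrl, 30.2 to 33.7 in NaAsO2, 8.999 to 9.91 in RK-33 and 42.7 to 50.6 in Combo, and the groups did not overlap. NORAD had 213 to 222 CPM in Ctrl, 592 to 738 in NaAsO2, 243 to 268 in RK-33 and 459 to 548 in the Combo insoluble libraries, where NaAsO2 stood above Combo without overlap. In the soluble libraries, NaAsO2 stood below Combo.

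With the lysate as a replicate block, the 6 differences kept their direction (adjusted p 0.0517 to 0.0838) but none passed. Without replicate 3 of the insoluble NaAsO2 libraries, which stands apart, CECR2 (0.99) and NORAD (0.94) lay under the fold limit. Without replicate 3 of the soluble RK-33 or of the soluble Combo libraries, XAB2 was at -1.09 and -1.10 with adjusted p = 0.0799 and 0.079 (edgeR).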

How the results depend on the processing

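In place of the 571 genes of the soluble exon interaction, 163 were called with a mean of at least 10 CPM, 171 in a fit of all 24 libraries, 335 without the libraries numbered 3 of RK-33 and Combo, 113 at an absolute log2 interaction of at least 2 and 3123 without a fold limit. RLE factors, library size alone, RN7SL genes left out, the likelihood ratio test, DESeq2, no filter, exon plus intron counts and the removal of the GC trend gave 531 to 725. With 1 library left out, the soluble exon count was 359 to 888, the soluble intron count 483 to 753 (636 with all libraries), the insoluble count 3 to 520 (195 with all) and the number of genes that differ between fractions 182 to 859 (325 with all). The smallest soluble exon count was without Ctrl replicate 1 and the largest without RK-33 replicate 1, and for the fraction difference the smallest was without soluble Combo replicate 2 and the largest without insoluble NaAsO2 replicate 3. Without a fold limit, 1175 genes passed in introns and 306 in the insoluble fraction. The insoluble count was 512 with the likelihood ratio test, 438 with DESeq2 and 683 without a filter, and the fraction difference was 104 without a filter and, under library size alone, 312 higher and 89 lower in the soluble fraction. The cause of these shifts was not tested.

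Deviations of the soluble libraries from their group means correlated above 0.1 in 3 of 18 same-numbered pairs (range -0.281 to 0.207). Among differently numbered pairs, 11 of 36 did so (range -0.269 to 0.302). Deviations from a mean of 3 libraries depend on each other, so these correlations cannot tell whether the numbers mark a shared run. A replicate block gave 506 genes in soluble exons, 530 in introns and 231 in the insoluble fraction, and with the lysate as block 8 genes differed between fractions. Over 25 settings and 48 named genes, 1092 values kept their direction and side of the threshold, 97 lost and 3 gained the call, and 4 changed sign, all of DDX3X, at -0.0858 with exon plus intron counts, -0.101 with the GC trend removed, -0.0332 without both libraries numbered 3 and, with 1 soluble library left out, in a range of -0.0363 (without RK-33 replicate 3) to 0.1439 (without RK-33 replicate 1). Depth limits rare genes most, and 336 of the 532 genes above the additive level had a mean under 5 CPM.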

Other observations

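Intron counts held transcripts whose interaction was large in introns and small in exons. They were chosen after their values were seen, from the 40 genes with the smallest adjusted p in the intron fit. SRSF7, an SR splicing factor that controls its own splicing, had 60.8 to 64.55 CPM of intron counts in Ctrl, 56.2 to 63.4 in NaAsO2, 43.4 to 48.1 in RK-33 and 147, 153 and 157 in Combo. Combo stood above the other 9 libraries, and the intron interaction was 1.80 (SE 0.18, adjusted p = 1.01e-06, edgeR), while the exon interaction was 0.21 (adjusted p = 0.245). SRSF3, of the same family, had 100.2 to 139 CPM of intron counts in the 9 other libraries and 308 to 354 in Combo. FSCN1, an actin bundler, had 87.85 to 115 CPM of intron counts elsewhere and 329, 342 and 345 in Combo (1.71 in introns, -0.30 in exons). SLC9A3R1, a scaffold of membrane transporters, had 42.2 to 58.9 elsewhere and 211, 175 and 229 in Combo (2.01 in introns, -0.21 in exons). PPP1R10, a regulator of nuclear protein phosphatase PP1, had 170 to 224 elsewhere and 667, 791 and 641 in Combo (1.85 in introns, 0.37 in exons, where its adjusted p was 0.0254).

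DISP3, a sterol-sensing domain protein, was high in both readouts, with 3.99 to 19.7 CPM of intron counts in the 9 other libraries and 211, 218.5 and 286 in Combo (3.61 in introns, 2.96 in exons). Introns of IFNGR2, a subunit of the interferon-γ receptor, went the other way, with 60.7 to 134 CPM of intron counts elsewhere and 36.2, 37.1 and 37.6 in Combo (-1.66 in introns, 0.11 in exons). Those of ST3GAL5, a sialyltransferase, had 74.5 to 103 elsewhere and 32.5, 37.1 and 34.2 in Combo. For PPARG, a nuclear receptor, introns had 97.3 to 111 CPM in Ctrl, 164 to 212 in NaAsO2, 130 to 165 in RK-33 and 73.1, 83.9 and 105 in Combo (-1.60). Intron shares of exon plus intron counts were 17.7% to 22.3% in Ctrl, 13.7% to 18.9% in NaAsO2, 13.3% to 22.6% in RK-33 and 18.1% to 28.4% in Combo. Combo thus overlapped each other group, and the part of these shares in the intron values was not tested.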
